A study of Mus musculus with 2 samples.

Results

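Microexons are exons so short that they add only a few amino acids to a protein. The exons described here are the internal exons of 30 nt or less in annotated transcripts of protein-coding genes, and 916 of them, in 714 genes, had reads across them in each of 2 long-read RNA libraries of mouse gastrocnemius. They come from 2618 such exons in the annotation, of which 311 had spanning reads in replicate 1 alone, 95 in replicate 2 alone and 1296 in neither. Among exons of any length, 82386 of 192755 annotated internal exons of protein-coding genes had spanning reads in both libraries.

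Both libraries belong to 1 group: gastrocnemius, the large calf muscle, of male B6CASTF1/J mice at 25 days of age. These are F1 hybrids of a C57BL/6J and a CAST/EiJ parent, while reads were placed on the mm10 reference genome, which is of the C57BL/6J strain. Total RNA was used, 2 µg per library, with spike-in RNAs of Ambion and Lexogen added, and no sample carries another genotype or treatment. The labels name separate animals but give 1 donor record for both, so a difference between the libraries measures the spread between these samples, which may be technical. With 1 group no condition was compared, and each test below compares 2 libraries and covers counting error only.

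Splicing of an exon this short is demanding because the sites at its ends lie too close together for the usual recognition across the exon. Many microexons need enhancer sequences in the flanking intron and factors such as SRRM4, RBFOX and QK. Microexons are best known from neurons, where they adjust interaction surfaces of synaptic and cytoskeletal proteins. Muscle has its own set, in contractile proteins, calcium-handling proteins and transcription factors of the MEF2 family. A whole-transcript read shows in 1 molecule whether a microexon was kept and which other exons came with it.

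For each exon the reads of multi-exon transcript models that reach past both of its ends were counted as including it (an exon with the same 2 ends), skipping it by an annotated intron, or skipping it by a new intron, one that is not in the annotation. Inclusion is the including share of these spanning reads, and reads with an overlapping exon of other ends were left out. The deposited files give the ends of exons but not the bases of reads, so a new intron is a statement on where the authors' processing placed the read. Whether reads placed across a new intron held the bases of the microexon was not tested.

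The sequences that the results turn on are shown first. They were read from the GENCODE M21 transcripts (build GRCm38, the same as mm10) along the transcript, 5′ to 3′, with the microexon in capitals and the bases of the neighbouring exons in lower case. The first pair are the 18 nt exons of the calcium pumps SERCA1 (Atp2a1) and SERCA2 (Atp2a2), which return calcium to the sarcoplasmic reticulum of fast fibres and of slow and cardiac fibres; they match at 13 of 18 positions and had opposite values in these libraries. 
Atp2a1, chr7:126462500-126462517, minus strand: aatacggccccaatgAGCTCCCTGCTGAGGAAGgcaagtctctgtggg
Atp2a2, chr5:122500931-122500948, minus strand: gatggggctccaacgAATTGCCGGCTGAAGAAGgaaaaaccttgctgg

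The 25 nt and 28 nt exons of Myl1 are shown because each of them marks a different protein of this gene, the essential light chains of fast myosin, MLC3f and MLC1f, and because they had 104361 spanning reads summed over both exons and libraries, most reads being counted at both.
Myl1 25 nt exon, chr1:66934518-66934542, minus strand: TCCTTCAGTGCTGACCAGATTGCCG
Myl1 28 nt exon, chr1:66934246-66934273, minus strand: ATCGAGTTCTCTAAGGAGCAACAGGAGG

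The 28 nt exon of the myosin heavy chains, the motor proteins of the thick filament, is shown for 4 genes as an example of a short exon that was nearly always kept. The pairs of these sequences match at 22 to 25 of 28 positions.
Myh4, chr11:67242141-67242168, plus strand: ATCGTGAGAATCAGTCCATCCTGATTAC
Myh1, chr11:67203576-67203603, plus strand: ATCGGGAGAACCAGTCTATTTTGATCAC
Myh2, chr11:67176144-67176171, plus strand: ACAGGGAGAATCAGTCAATCCTGATCAC
Myh7, chr14:54991716-54991743, minus strand: ATCGGGAGAATCAGTCCATCCTCATCAC

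The MEF2 genes encode transcription factors of muscle differentiation, and the short exon of each adds an acidic stretch known to strengthen activation. They are shown because related exons of 21 to 24 nt had values from 1.28% to 100%; the exons of Mef2c and Mef2a match at 17 of 24 positions.
Mef2a, chr7:67244521-67244544, minus strand: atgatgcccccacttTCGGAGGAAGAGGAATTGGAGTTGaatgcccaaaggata
Mef2c, chr13:83654598-83654621, plus strand: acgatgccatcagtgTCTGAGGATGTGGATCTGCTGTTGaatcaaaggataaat
Mef2d, chr3:88161781-88161801, plus strand: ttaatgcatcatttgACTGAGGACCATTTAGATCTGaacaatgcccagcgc

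The last set shows triadin (Trdn), a protein that anchors calsequestrin at the calcium release site and whose transcript has 11 of the microexons. The 30 nt exon that was kept in part of the reads is shown beside the next exon, also of 30 nt, that was kept in nearly all. The first 8 bases of both are the same, and 21 of 30 positions match.
Trdn, mixed exon, chr10:33433701-33433730, plus strand: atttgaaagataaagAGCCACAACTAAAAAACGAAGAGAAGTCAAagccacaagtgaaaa
Trdn, next exon, chr10:33437718-33437747, plus strand: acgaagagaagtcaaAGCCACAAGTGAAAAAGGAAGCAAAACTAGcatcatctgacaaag

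The members ran from 1 to 30 nt, with a median of 24 nt. By the M21 annotation 827 lay in coding sequence, 24 were part coding, 40 lay in untranslated regions and 25 were exons of transcripts without coding sequence. A length that is a multiple of 3, which keeps the reading frame whether or not the exon is used, was found for 542 of 916 (59.17%), against 39.29% of the 81470 internal exons of 31 nt or more with reads in both libraries. In the 385 members with 10 or more spanning reads in each library the share was 52.99%, against 38.94% of longer exons so covered. Members were not spread evenly over genes: 130 genes had 2 or more and held 332 of them. Trdn led with 11, followed by troponin T genes with 9 (Tnnt3), 7 (Tnnt2) and 6 (Tnnt1), and by the collagen VI gene Col6a1 with 6. The ends of 26 members overlapped another member, so these share reads.

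Replicate 1 held 1292409 reads, of which 1149376 were of multi-exon models of protein-coding genes; replicate 2 held 1703457 and 1322269. A member had a median of 18 spanning reads in replicate 1 and 8 in replicate 2. Inclusion was read from the 385 members with 10 or more spanning reads in each library, and the other 531 are given by counts alone. Of these 531, 286 had an including read in both libraries, 21 in 1 library and 224 in neither. Markers of muscle fibres summed to 191600 and 182700 CPM (counts per 1000000 reads in annotated genes). Those of fibroblasts summed to 6128 and 1375 CPM, of Schwann cells to 154.6 and 506.6 CPM and of neurons to 2.47 and 5.16 CPM, with 4 of 9 neuronal markers (Snap25, Elavl4, Nefl and Srrm4) at 0 reads. The part of these cell types in the results below was not tested, and in bulk tissue fewer cells of a type and less RNA per cell cannot be told apart.

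Most microexons were either kept or left out. Of the 385 members, 185 (48.05%) had inclusion of 90% or more in both libraries, 158 (41.04%) had 10% or less in both, 27 (7.01%) lay between these limits in both, and 15 had the libraries on different sides of a limit. The count of 27 was 8 over annotated transcripts only, 48 and 16 with minimums of 5 and 20 reads, 49 with limits of 5% and 95%, and 76 in replicate 1 without replicate 2. The extremes were common: 77 had no skipping read in either library and 136 had no including read in either. The median inclusion of 87.36% in replicate 1 and 90% in replicate 2 therefore describes few exons.

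**Figure D1:**
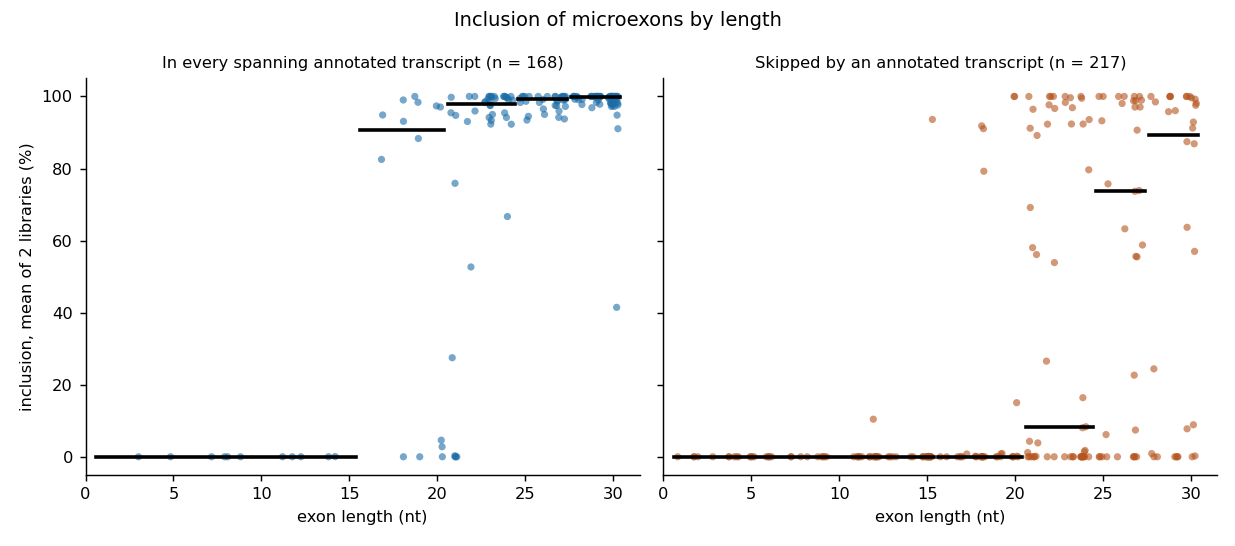
Inclusion (mean of 2 libraries, percent, vertical axis) of each of 385 microexons against its length (nt, horizontal axis, points spread sideways within 1 nt), at left for exons in every spanning annotated transcript and at right for exons that an annotated transcript skips. Black lines are medians of length classes. At left no exon of 15 nt or less was included, while 99 of 101 exons of 25 to 30 nt had 90% or more in both libraries. Values are of reads as they were placed, and skips at left are by new introns.

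Length went with inclusion, as reads were placed. This is clearest in the 168 members that every spanning annotated transcript of their gene includes, for which the annotation gives no way to skip. Of these, all 11 of 15 nt or less had inclusion of 10% or less in both libraries, and 10 of the 11 had no including read. New introns carried these skips: their median share of spanning reads was 100% in both libraries at 1 to 9 nt and at 10 to 15 nt. Whether such reads held the bases of the microexons was not tested. In the range of 16 to 24 nt, 39 of 56 were included and 9 were skipped. From 25 to 30 nt, 99 of 101 were included and none was skipped. For comparison, 22708 of 22832 (99.46%) annotation-constitutive exons of 31 nt or more were included and 3 were skipped. The median stood at 0% in both libraries below 16 nt, at 88.45% and 92.47% at 16 to 20 nt, at 99.42% and 97.77% at 21 to 24 nt, and at 100% in both at 28 to 30 nt. Just inside the limit of 30 nt, 96.92% of the exons of 28 to 30 nt were included, and just outside it 99.32% of those of 31 to 60 nt.

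The same order held for the 217 members that an annotated transcript skips. Of 65 such exons of 15 nt or less, 63 were skipped and 62 had no including read, and 1 was included, in Arhgef10l. From 16 to 24 nt, 17 were included, 10 lay between the limits and 54 were skipped of 87. From 25 to 30 nt, 29 were included, 13 lay between the limits and 21 were skipped of 65. In exons of 31 nt or more that an annotated transcript skips, 74.17% were included and 15.85% skipped. The classes by length are described over exons with enough reads, and exons of 1 gene are not independent.

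**Figure D2:**
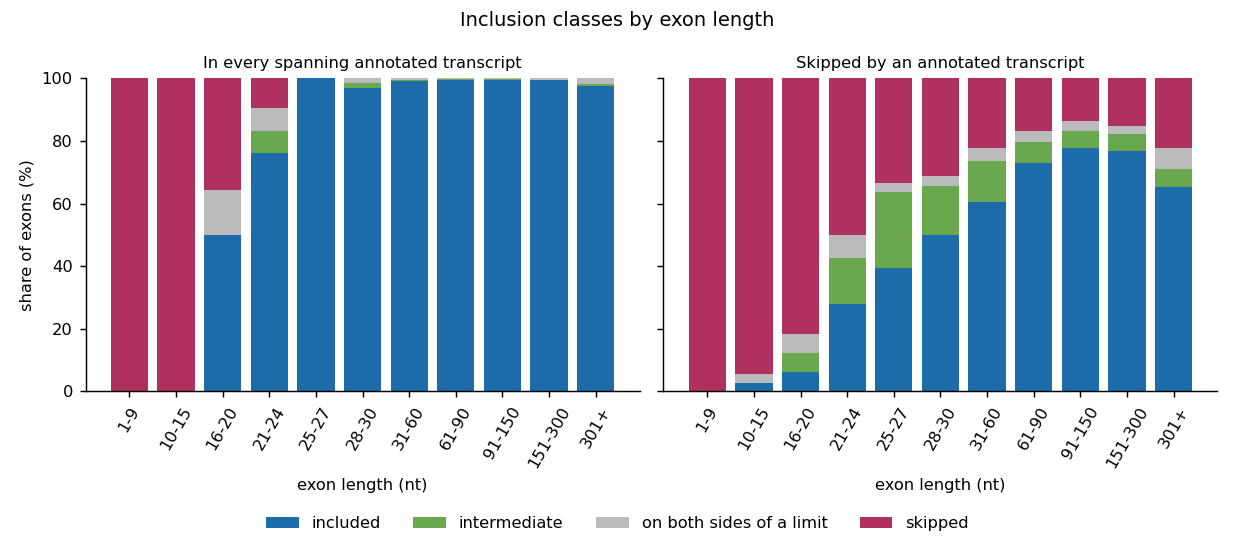
Share of internal exons (percent, vertical axis) in each inclusion class by exon length (nt, horizontal axis), for exons with 10 or more spanning reads in each library. Among exons in every spanning annotated transcript (left) the skipped class fills all of the bars of 1 to 15 nt, has 35.71% at 16 to 20 nt and 9.52% at 21 to 24 nt, and is at or near 0 in every longer class. Classes are of reads as they were placed.

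New introns were frequent at skipped microexons. Of the 158 skipped members, 58 were skipped mainly by new introns in both libraries (over 50% of skipping reads) and 98 mainly by annotated introns; 2 were neither. The median length was 15 nt in the former and 18.5 nt in the latter, and 32 of the 58 and 41 of the 98 had 15 nt or less. Summed over all members, new introns carried 64.76% of spanning reads in replicate 1 and 41.24% in replicate 2. A single exon, that of Atp2a1, decides the first value: without it the shares were 19.9% and 29.26%. In exons of 31 nt or more the shares were 0.192% and 0.342%. Among annotation-constitutive exons, new introns took over 50% of spanning reads in both libraries at 22 of 168 members and at 5 of 22832 longer exons.

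The new introns fall into kinds by how they meet the neighbouring exons. Of 61 members whose spanning reads were mainly on new introns in both libraries, 12 had neighbours joined at their annotated ends. In these models only the microexon was missing. At 4 the neighbouring exons were longer than annotated by exactly the length of the microexon, and at 4 more by that length within 3 nt. At 18 the intron reached beyond the neighbouring exons, and at 23 the most frequent kind was none of these. In Suds3, a subunit of a histone deacetylase complex, the 20 nt exon had 0 of 92 and 0 of 85 including reads, and 100% and 98.82% of its new-intron reads had neighbours longer by 4 nt upstream and 16 nt downstream. In Hnrnpk, an RNA-binding protein, 96.59% and 95.16% of new-intron reads at a 16 nt exon were placed with an upstream exon 16 nt longer. The 8 nt exon of Pitpnb and the 3 nt exon of Rwdd4a had the same exact match of lengths in all of their new-intron reads.

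For some exons an annotated transcript that keeps the intron gives the bases by which a neighbouring exon was extended. Those of Hnrnpk and Capn2, chosen after their values were seen, are shown to compare them with the microexon. In Hnrnpk the 16 added bases and the microexon have 8 of 16 positions in common. In Capn2, the catalytic subunit of m-calpain, the main new intron at a 12 nt exon added 17 bases to the upstream exon. The first 12 of them match the microexon at 8 positions. Elsewhere matches were 6 of 18 positions in Rps24, 1 of 4 in Idh3g, 3 of 4 in Lmf1 and 2 of 3 in Rwdd4a.
Hnrnpk microexon, chr13:58393853-58393868, minus strand: GGTGGTTCTGGATATG
Hnrnpk added bases, chr13:58394060-58394075, minus strand: GTTGAGTATCAATAAT
Capn2 microexon, chr1:182482536-182482547, minus strand: GTTCCAGAGGAG
Capn2 added bases, chr1:182484186-182484202, minus strand: GTACCGGCAGAGGATGG

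The contractile genes show the extremes of both groups. Of 56 members in 24 genes of contractile and Z-disc proteins, 40 had 10 or more spanning reads in each library: 14 were included, 4 lay between the limits, 21 were skipped and 1 had the libraries on different sides. Of the 21 skipped, 19 were left out mainly by new introns. Among these are the 9 exons of Tnnt3, spanned mostly by the same reads, and overlapping versions of 1 exon of Tnnt1. The 19 are therefore not independent. The list and its genes were set with earlier results of these data known.

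The exons of the myosin heavy chains and of Mybpc2 were nearly always kept. The 28 nt exon of Myh4, the myosin of fast IIb fibres, was in 20172 of 20237 spanning reads (99.68%) in replicate 1 and in 1476 of 1495 (98.73%) in replicate 2. That of Myh1, the IIx myosin, was in 5196 of 5227 (99.41%) and 420 of 437 (96.11%). The exons of Myh2 (IIa) and Myh7 (slow) stood at 99.74% and 99.81% in replicate 1 and at 98.46% and 100% in replicate 2. All 4 exons are above 96% in both libraries. The 30 nt exon of Mybpc2, the fast myosin-binding protein C, was kept in 99.86% and 99.88% of 8141 and 1732 reads.

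The M-band proteins myomesin 1 and 2, which link neighbouring thick filaments, have exons of 23 nt. The exon of Myom2 stood at 99.33% and 99.19%. Myom1 has 1 of 23 nt that was kept in 98.25% and 98.43% of reads and another, used by 1 of 3 spanning annotated transcripts, that had 0 of 742 and 0 of 127 reads, which allows shares of up to 0.404% and 2.36%.

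Myl1 divided its reads between its 2 microexons. The 25 nt exon was in 11647 of 15811 spanning reads (73.66%, 95% Clopper-Pearson interval 72.97 to 74.35) in replicate 1 and in 27918 of 35881 (77.81%, 77.37 to 78.24) in replicate 2. The 28 nt exon was in 4365 of 16205 reads (26.94%, 26.25 to 27.63) and 7975 of 36464 (21.87%, 21.45 to 22.30). In reads that span both, 70.82% in replicate 1 and 74.66% in replicate 2 had the 25 nt exon alone and 24.76% and 19.09% had the 28 nt exon alone. Both exons together were found in 2.84% and 3.14%, and neither in 1.59% and 3.11%. Most molecules therefore held 1 of the 2 exons.

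Troponin I, the inhibitory subunit of troponin, has a short exon of each kind in its fast and its slow gene. In fast Tnni2 the 30 nt exon was kept in 4099 of 4102 and 5538 of 5544 reads (99.93% and 99.89%), while the next exon, of 7 nt, was in 0 of 4834 and 0 of 7183, although all 3 spanning annotated transcripts include it. For reads as they were placed, these counts allow inclusion of up to 0.0621% and 0.0418%. Whether the reads on new introns held the 7 bases was not tested. In slow Tnni1 the 30 nt exon was kept in 132 of 133 and 384 of 384 reads and the 4 nt exon that follows was in 0 of 133 and 0 of 389. At the 7 nt exon 96.26% and 94.42% of new-intron reads joined the neighbouring exons at their annotated ends, and at the 4 nt exon 99.25% and 99.23%. Neither length is a multiple of 3.

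Troponin T ties troponin to tropomyosin, and its variable N-terminal region is built from cassette exons. All 9 members of fast Tnnt3, of 8 to 19 nt, were skipped: inclusion ran from 0% to 1.16% over 1643 to 1682 spanning reads in replicate 1 and from 0% to 0.414% over 3143 to 3213 in replicate 2. This includes a 14 nt exon that all 25 spanning annotated transcripts carry, with 2 of 1662 and 0 of 3189 reads. A further 13 and 32 reads had an overlapping exon of other ends there and were left out. An unannotated 7 nt exon with the same start had 10 and 32 reads. Whether reads on new introns held the bases of the 9 exons was not tested. New introns took at least 98.84% and 99.59% of the spanning reads of each exon, and they were many: between 67 and 84 different new introns per exon. The most used one, at chr7:142501725-142510663, reaches across all 9 and held 465 reads in replicate 1 and 588 in replicate 2. The deposited models thus hold few reads for forms of Tnnt3 that differ in these exons.

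Slow Tnnt1 was split. Its 22 nt exon was in 54 of 98 (55.1%) and 118 of 224 (52.68%) spanning reads, while the versions of that exon with 16 and 19 nt, and exons of 11 and 14 nt, had no including read, with 44 to 97 spanning reads in replicate 1 and 106 to 222 in replicate 2. No read skipped the 22 nt exon by an annotated intron. A 27 nt exon upstream was kept with it in 57.61% and 53.62% of the reads that span both and alone in 39.13% and 41.55%. The 27 nt exon was thus in most of these reads, while the 22 nt exon varied. An intron across the 22 nt exon, at chr7:4510389-4513580, held 36 of its 44 and 89 of its 106 new-intron reads. Measured at the 19 nt version, that intron lengthens the downstream exon by 8 nt. The 14 nt exon, in all 10 spanning annotated transcripts, had 0 of 96 and 0 of 219 reads, and in 96.88% and 94.98% of its new-intron reads the upstream exon was 12 nt longer.

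**Figure D3:**
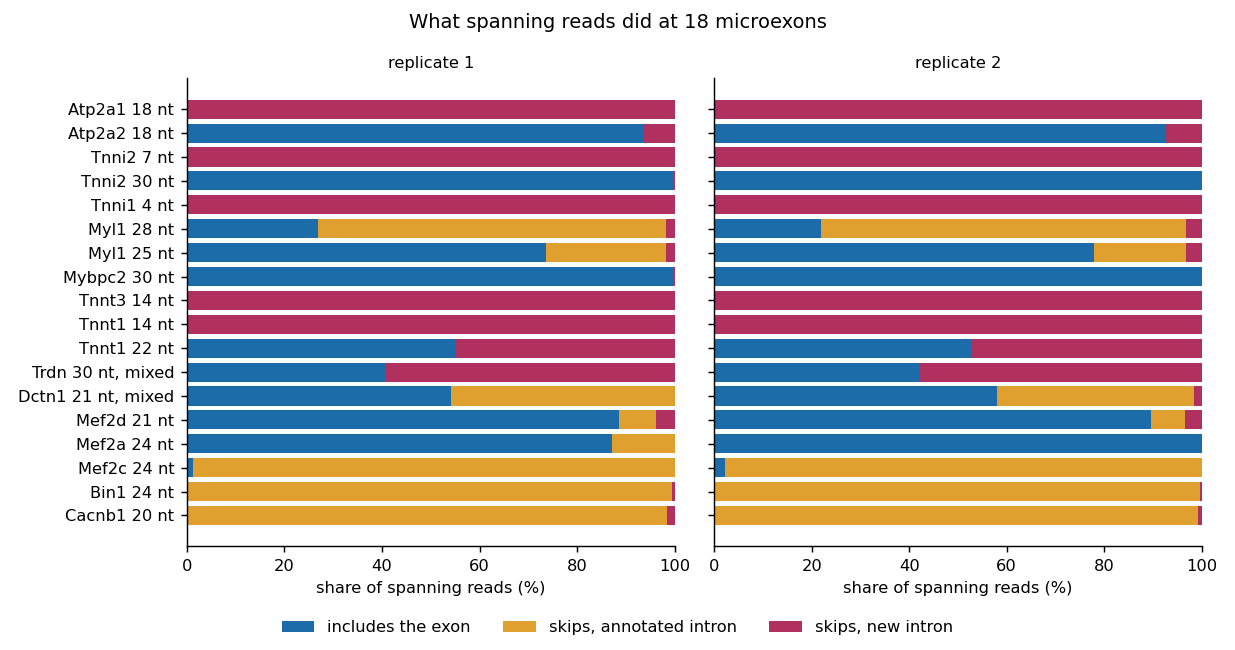
Share of spanning reads (percent, horizontal axis) that include, skip by an annotated intron or skip by a new intron at 18 microexons (rows, gene and length), with replicate 1 at left and replicate 2 at right. Atp2a1, Tnni2 7 nt, Tnni1 4 nt, Tnnt3 14 nt and Tnnt1 14 nt are filled by new introns, Mef2c, Bin1 and Cacnb1 by annotated introns, and Mef2a differs most between the panels, at 87.14% and 100%.

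Among genes of calcium handling and excitation, 21 of 23 members had enough reads: 12 were included, 2 lay between the limits and 7 were skipped. The calcium pumps lay at opposite ends. The 18 nt exon of Atp2a1 was in 0 of 179761 reads in replicate 1 and 0 of 33219 in replicate 2. The limits for 0, at 0.00167% and 0.00903%, cover counting error of reads as they were placed. Whether these reads held the bases of the exon was not tested. The exon is in the only annotated transcript that spans it, and its length is a multiple of 3. Of its new-intron reads 99.32% and 99.36% used 1 intron, at chr7:126462188-126462778, which lengthens the upstream exon by 26 nt. The 18 nt exon of Atp2a2 was in 290 of 310 (93.55%) and 88 of 95 (92.63%) reads. The 2 exons had the same length in the same gene family, and their values do not overlap.

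Triadin exons were kept, with 1 exception. The other 10 exons, of 18 to 30 nt, had inclusion from 92.27% to 100% in replicate 1 and from 92.31% to 100% in replicate 2. The 30 nt exon shown above was in 90 of 220 reads (40.91%, 34.35 to 47.72) and 29 of 69 (42.03%, 30.24 to 54.52). Of its new-intron reads 96.15% and 97.5% joined its annotated neighbours directly, with no base added. No read skipped it by an annotated intron, and the only annotated transcript that spans it includes it. In reads that also span the next exon, 40.91% and 42.65% had both, 56.82% and 55.88% the next exon alone, and none the mixed exon alone. Values in the libraries differed by 1.12 percentage points (p = 0.89, two-sided Fisher exact test).

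Of the other 6 skipped exons of this list, 4 were left out mainly by annotated introns and 2 by new introns. In Cacnb1, the beta subunit of the muscle L-type calcium channel, a 20 nt exon had 1 of 342 and 0 of 345 reads. In Ryr1, the calcium release channel, exons of 18, 27 and 30 nt had 0 of 220, 273 and 273 reads in replicate 1 and 0 of 23, 33 and 33 in replicate 2, with annotated introns in most reads. Its exons of 2 and 15 nt had 0 of 121 and 0 of 11 reads, all skipped by new introns.

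Of the 4 members in transcription factor genes, 3 had enough reads, and all 3 are MEF2 exons. Mef2d kept its 21 nt exon in 94 of 106 (88.68%) and 26 of 29 (89.66%) reads, and Mef2a its 24 nt exon in 61 of 70 (87.14%) and 12 of 12 (100%). Mef2c kept its 24 nt exon in 2 of 156 (1.28%) and 1 of 45 (2.22%). The intervals of Mef2c, 0.156 to 4.55 and 0.0563 to 11.77, lie far below those of Mef2d, 81.06 to 94.01 and 72.65 to 97.81. Mef2c was thus far below Mef2d and Mef2a in both libraries.

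Cytoskeletal and membrane-traffic genes had 30 members but only 8 with enough reads, of which 5 were skipped, 1 was included, 1 lay between the limits and 1 had the libraries on different sides. The 24 nt exon of Bin1, a membrane-bending protein of the T-tubule, was in 0 of 817 and 0 of 560 reads, so at most 0.367% and 0.536%. An 18 nt exon of the kinesin Kif1b had 0 of 251 and 0 of 29 reads, and exons of 6 and 21 nt of the microtubule-tip protein Clip1 had 0 of 176 and 174 in replicate 1 and 0 of 28 and 25 in replicate 2. The GTPase Dnm2, which cuts membrane necks, used its 30 nt exon in 29 of 51 (56.86%) and 8 of 14 (57.14%) reads. Its 12 nt exon at chr9:21489910-21489921 had 0 of 51 and 0 of 14, and another 12 nt exon, at chr9:21490658-21490669, had 7 of 51 and 1 of 14.

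Microexons described in neurons were thinly covered. The list gave 25 members in 16 genes, and 2 had 10 or more reads in each library. The 15 nt exon of Ergic3 had 0 of 89 and 0 of 117 reads and the 9 nt exon of Ap1s2, an adaptor subunit of coated vesicles, 0 of 15 and 0 of 13, which allows up to 20% and 23.08%. Even so, 8 of the 25 had an including read. Ptk2, the focal adhesion kinase, had 7 of 19 and 3 of 4 reads with its 18 nt exon and 11 of 19 and 1 of 4 with its 21 nt exon. Abi1, a regulator of actin branching, had 6 of 8 and 1 of 2 with a 15 nt exon, and Herc4 had 10 of 15 and 2 of 6 with one of 24 nt. These numbers set no level, but show that reads with such exons were found in this tissue.

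The 27 exons between the limits in both libraries are those for which both forms were measured. Of the 27 exons, 25 were longer than 20 nt and none had 15 nt or less. A length that is a multiple of 3 was found for 20 (74.07%, interval 53.72 to 88.89). That share was 49.73% in the 185 included and 51.9% in the 158 skipped members. Exons between the limits in Myl1, Tnnt1, Trdn, Mef2d and Dnm2 are given above. The dynein activator Dctn1 used a 21 nt exon in 208 of 384 (54.17%) and 36 of 62 (58.06%) reads. The other 3 microexons of Dctn1, of 21, 18 and 15 nt, together had 1 including read in replicate 1 and none in replicate 2. In the phosphatase calcineurin, which signals in response to calcium, a 30 nt exon of the catalytic subunit gene Ppp3ca was in 265 of 306 (86.6%) and 83 of 94 (88.3%). A 27 nt exon of Ppp3cc was in 9 of 16 and 11 of 20. In reads that also span a 30 nt exon further along, that exon was always present, with the 27 nt exon in 9 of 16 and 10 of 19.

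Anxa6, a calcium-dependent membrane-binding protein, kept an 18 nt exon in 172 of 220 (78.18%) and 106 of 132 (80.3%). Mapk12, the p38 kinase of skeletal muscle, kept one of 30 nt in 87.36% and 86.36% of 174 and 176 reads. Rilpl1 kept one of 24 nt in 78.77% and 80.53%. A 20 nt exon of Myl6, a myosin light chain of non-muscle and smooth muscle cells, was in 14.93% and 15.1% of reads, and a 26 nt exon of Hnrnpc, an RNA-binding protein, in 56.52% and 70%. Counted over annotated transcripts only, the mean inclusion was 0% for the exons of Dctn1, Dnm2 (30 nt), Rilpl1 and Myl6 and 50% for that of Mef2d, so their including reads lie wholly or in part in models outside that class. The related genes Tpd52 and Tpd52l2 have a 27 nt exon with 17 of 27 matching positions, and it was in 22 of 37 (59.46%) and 17 of 33 (51.52%) reads of Tpd52 and in 28 of 46 (60.87%) and 34 of 60 (56.67%) of Tpd52l2.

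Car14, a membrane carbonic anhydrase, had 2 exons that were kept or left out together. The 21 nt exon at chr3:95902111-95902131 was in 52 of 171 (30.41%) and 42 of 171 (24.56%) reads, and the 22 nt exon at chr3:95901459-95901480 in 51 of 171 (29.82%) and 40 of 172 (23.26%). Reads that span both had both in 29.82% and 22.81% of cases and neither in 69.59% and 75.44%, and none had the 22 nt exon alone. Of the new-intron reads of the 21 nt exon, 87.39% and 88.37% used 1 intron, at chr3:95901273-95904293, that lengthens the upstream exon by 26 nt. Annotated introns skipped the 22 nt exon in 1 and 2 reads. They skipped the 21 nt exon in none, and every spanning annotated transcript includes that exon. Another microexon of Car14, of 21 nt at chr3:95898977-95898997, had 1 of 177 and 0 of 174 reads.

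**Figure D4:**
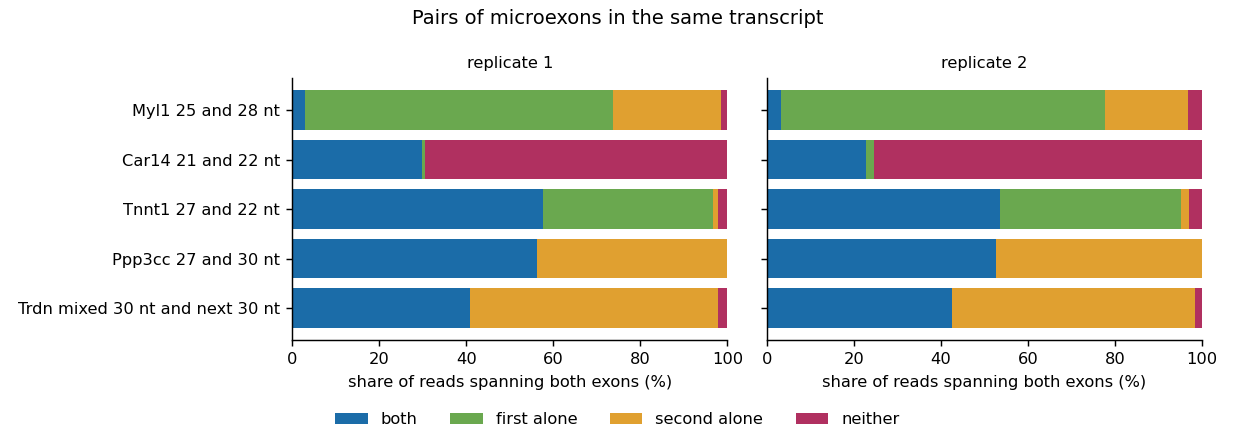
Share of reads spanning both of 2 microexons (percent, horizontal axis) that hold both, the first alone, the second alone or neither, in transcript order, for 5 pairs (rows) in replicate 1 (left) and replicate 2 (right). The Myl1 pair is mostly one or the other, the Car14 pair both or neither, and in Tnnt1, Ppp3cc and Trdn 1 exon of the pair is kept in nearly all reads while the other varies.

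Several gene families share a microexon of the same length, and these families were picked after their values were seen. The TRIM proteins, which include muscle ubiquitin ligases, have a 23 nt exon in 12 genes. In the 7 with enough reads it stood between 84.62% and 100%, although its sequence matches at only 5 to 15 of 23 positions between genes. Trim63 (MuRF1), which marks thick-filament proteins for degradation, kept it in 372 of 400 (93%) and 222 of 237 (93.67%) reads, and Trim54 (MuRF3) in 99.42% in each. Of the 5 with fewer reads, Trim11 had 0 of 4 and 0 of 5 including reads, Trim26 0 of 2 and 1 of 4, and Trim68, Trim21 and Trim41 included it in all of their 1 to 7 reads. At Trim55 (MuRF2) it was in 69 of 69 and 33 of 39 reads. The phosphatidylinositol transfer proteins Pitpna, Pitpnb and Pitpnc1 each have an exon of 8 nt, with only 2 to 5 of 8 positions matching between genes. These had no including read among 251 and 236 spanning reads. The calpains Capn1 and Capn2 have one of 12 nt, with none among 153 and 50.

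Collagen VI, made by fibroblasts, gave both outcomes in 1 gene. Among 5 members of Col6a1 with enough reads, those of 9, 21 and 21 nt had no including read in 83, 59 and 59 spanning reads of replicate 1 and in 18, 10 and 10 of replicate 2. Those of 27 and 30 nt were kept together in 61 of 62 and 8 of 10 reads that span both. The 2 exons of 21 nt were left out by 1 new intron that all 59 and 10 reads shared.

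The libraries gave close values for most exons. The inclusion of each internal exon of any length with 10 or more spanning reads in each library was then tested between the libraries (Fisher exact, two-sided), with Benjamini-Hochberg adjustment over all 32159 exons and a threshold of 0.05. The test called 0.252 percent of these exons (81) and 4 of the 385 microexons, 1 higher and 3 lower in replicate 2. At an unadjusted p under 0.05 there were 12 microexons. The inclusion differed by 10 percentage points or less in 371 (96.36%). These hold the 77 members with no skipping read and the 136 with no including read in either library, which differ by 0. The 90th percentile of the difference was 5.44 points, against 1.88 in all exons tested.

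All 4 called exons are in myosin genes with 437 or more spanning reads in each library, and none differed by more than 5.07 points. In Myl1 the difference (replicate 2 minus replicate 1) was -5.07 points at the 28 nt exon (adjusted p = 1.3e-31, Fisher exact) and 4.14 points at the 25 nt exon (adjusted p = 4.6e-20). These are 2 measurements of 1 choice. At the exons of Myh1 and Myh4 it was -3.30 and -0.95 points (adjusted p = 3.7e-05 and 0.0017, Fisher exact). Both of these rest on new introns alone, since every spanning annotated transcript includes these exons. Counting skips by annotated introns alone could therefore call neither of them, and it left 2 of the 4 calls. In that setting 7 of 31995 exons of any length (0.0219%) were called. Luc7l2, a splicing factor, had 16 of 20 reads (80%) against 9 of 19 (47.37%) and did not pass (unadjusted p = 0.048, Fisher exact).

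**Figure D5:**
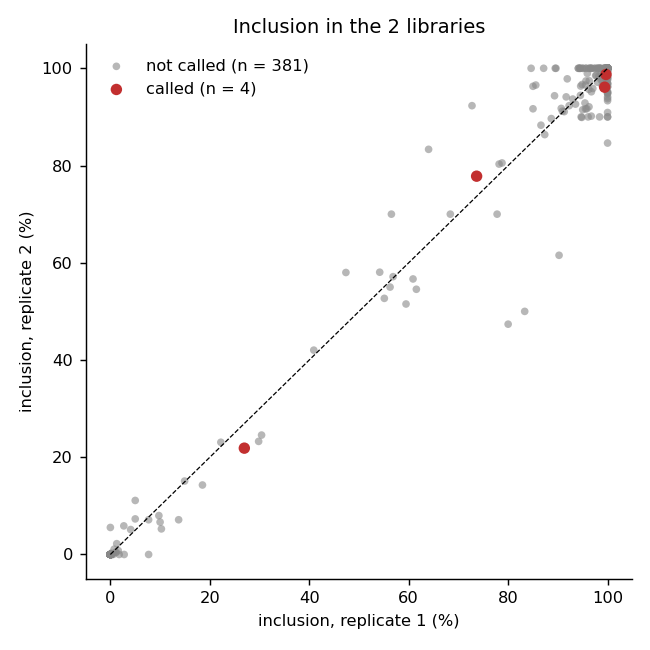
Inclusion of 385 microexons in replicate 1 (percent, horizontal axis) and replicate 2 (percent, vertical axis), with the line of equal values dashed. Most points lie at the corners at 0% and 100%, and the 4 called exons (red) lie close to the line, none more than 5.07 points from it.

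Genes of splicing regulators of microexons were read for background. None of the 30 genes has a member of its own. Srrm4 and Srrm3, which drive neuronal microexons, had 0 reads in both libraries, as did Mbnl3, Elavl2, Elavl3 and Elavl4. The muscle RNA-binding proteins Rbm38 and Rbm24 had 215.5 and 198.2 CPM in replicate 1 and 217.5 and 118.1 CPM in replicate 2. Mbnl1 and Mbnl2 had 102 and 261.6 against 32.91 and 65.18 CPM, Qk 180.1 against 63.89 CPM, and Rbfox1 42.77 against 32.91 CPM. Of 20 genes whose reads in the libraries summed to 10 or more, 10 differed between the libraries by the same kind of test on reads per gene, 1 higher and 9 lower in replicate 2, where 43.3 percent of 8692 genes tested differed, and with DESeq2 size factors 2 were higher and 6 lower. The 4 of 385 microexons called above were tested on another measure, inclusion within each exon, with medians of 61 and 38 spanning reads. The counts of genes and of microexons can therefore not be set against each other.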

How the data were processed

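The authors deposited, for each library, whole read counts per transcript model, not normalised, together with the coordinates of the exons of every model. Per the file headers, reads on mm10 were assigned by TALON to GENCODE M21 transcripts or new models, each library on its own. For the aligner, versions, read filters and strand, the sources used here give nothing.

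From these files, multi-exon models of an exon's own gene were counted per exon and library as described with the results. Exon matches were exact. Exons entered with 1 spanning read in each library, and inclusion was read from 10 in each. Intervals are 95% Clopper-Pearson, and the limit for 0 rests on 3 counts. Both cover counting error only, since reads of an amplified library are not independent molecules. Fisher's exact test ran over all exons (or genes), with Benjamini-Hochberg adjustment. In simulated data with 25 points added at 57 of 32159 exons, 29 (50.88%) were called and no unchanged exon was. edgeR 4.0.16 (TMM) and DESeq2 1.42.0 gave other library scalings for genes. Python 3.11.15, SciPy 1.17.1 and R 4.3.3 were used. CPM is per 1000000 reads in annotated genes.

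The members, gene lists and named exons were chosen with earlier results of these data known. Named exons were the 20 with the most spanning reads, those between the inclusion limits with 20 or more reads in each library (up to 25), called exons, up to 6 per list by reads, and the 10 with the most new-intron reads. Families and other named exons, among them Suds3, Hnrnpk, Capn2, Pitpnb, Rwdd4a, Col6a1, Luc7l2, Ppp3cc, Ptk2, Abi1 and Herc4, were picked after their values were seen. Exon sequences matched M21 transcripts for 372 of the 385 exons, and none from chromosome 18 is printed. Models without incomplete splice matches, without genomic models, annotated only or with 2 or more reads, matches within 3 nt, other read minimums and limits, and other scalings were tried.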

Additional observations from a re-analysis of the deposited data

Results flagged for a closer look

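Short internal exons outside the annotation were looked at apart from the members. In protein-coding genes, 45 unannotated internal exons of 30 nt or less had reads in both libraries, and 15 had more than the 3 reads that a count of 0 allows in each. Of these 15, 10 overlap an annotated exon, as in Gpcpd1 (21 nt, 85 and 36 reads) and Uso1 (21 nt, 77 and 15 reads), and 5 overlap none. These 5 were exons of 21 and 24 nt in Fermt2, an activator of integrins (65 and 25 reads, and 21 and 7 reads), of 27 nt in Ccpg1 (52 and 10 reads), of 27 nt in the calcineurin gene Ppp3cb (35 and 26 reads) and of 28 nt in Myl1 (5 and 13 reads). All were singled out for having reads in data that the comparisons did not use, and no further test was made of them.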

How the results depend on the processing

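Inclusion is limited by depth, by the 2 libraries of 1 group and by where reads were placed, which the deposited models fix. Of 465 values of 49 named exons under other settings, 17 were marked as moved. These were 8 with annotated transcripts only and 9 with skips by annotated introns only. Values not so marked can still lie outside the range of the 2 libraries. The Mef2d exon, at 88.68% and 89.66%, had 76.63% without incomplete splice matches and 97.62% with models of 2 or more reads. With annotated transcripts only there were 572 members in place of 916, and the median of the mean inclusion was 100% in place of 91.04%. There 8 exons lay between the limits in place of 27, and 55.77% of lengths were multiples of 3 in place of 59.17%. In that setting 2 of 216 microexons were called in place of 4, and 2 of 24938 exons of any length (0.00802%). New introns carried 0% in place of 53%. That 0% was fixed in advance, since annotated transcripts hold no new introns. Models with 2 or more reads gave 609 members, a median of 93.8% and 55.83% of multiples of 3. Skips by annotated introns only gave a median of 100% and 2 called exons of 323 microexons, with 7 of 31995 exons of any length (0.0219%) called. There the exons of Myh1 and Myh4, which every spanning annotated transcript includes, could not be called. Exons of 27 nt or less gave a median of 4.45% and 1 called exon of 288 tested, with 0.252% called over exons of any length. A difference of 10 points as well left 0 of the 4 exons called by the Fisher exact test. By that test 12 microexons had an unadjusted p under 0.05, with no limit on the difference. A minimum of 5 reads gave a median of 87.3% and 48 exons between the limits, a minimum of 20 reads 16, and limits of 5% to 95% 49. Leaving out each replicate in turn gave medians of 77.53% to 90% and 39 to 76 exons between the limits. Settings added after seeing the data were exons of 21 to 30 nt, with a median of 97.94%, and the members without the Atp2a1 exon, where new introns carried 24.58%, the mean of both libraries. The cause of these shifts was not tested beyond the fewer models, exons or samples that each setting keeps.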
